A study of Mus musculus with 7 samples.

Results

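The genes described here encode the cell junctions of the intercalated disc, the structure that joins heart muscle cells end to end. They were taken by symbol in the platform annotation of the array, and all 10 were found, with 1 probe set each, among 19505 named genes. They comprise the connexin genes Gja1, Gja5 and Gjc1, the desmosome genes Dsp, Pkp2, Jup, Dsg2 and Dsc2, and the adherens junction genes Cdh2 and Ctnna3. The values are log2 signals from the Affymetrix Clariom S mouse array, on which biotin-labelled cDNA binds probes for annotated transcripts.

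The study asked how the form of Mef2c shapes the direct reprogramming of mouse embryonic fibroblasts (MEFs) towards heart muscle, and what part the acetyltransferase p300 has. Cells called GT received retroviruses for Gata4 and Tbx5. With them came Mef2c isoform 2 fused to the MyoD transactivation domain (GT/M2TAD), isoform 6 (GT/M6), isoform 2 (GT/M2) or isoform 1 (GT/M1). A further pair also received small interfering RNA (siRNA), against Ep300 (siEp300) or as a control (siCtrl). Non-treated MEFs were the reference. Collection was at 1 week for the transduced cells, and no time was given for the MEFs. The strain of the mice was not given in the sources used here, and no array carried virus without the factors. The siRNA arrays carry contradictory labels, with GT/M2 in their titles and GT/M2TAD in their source names, so they were set against both.

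Each of the 7 arrays was a group of its own. There was thus no spread between replicates, no test and no p-value, and every difference below is between single arrays. A signal was called above background when it reached the signal that only the top 5% of the 5222 negative-control probes of its array exceed (their 95th percentile), a limit between 8.43 and 9.33. Between 23.7% and 29.6% of named genes reached it. A gene was counted as higher or lower when its signals differed by at least 1 on the log2 scale, which is 2-fold, and the higher signal was above background. Where only the brighter signal was above background, the difference has a lower bound, taken to the background limit of the dimmer array. Of the negative-control probes at that limit, 29.1% to 56.6% met the same rule, so counts near it carry little weight. Tbx5 had signals between 14.82 and 16.23 on the 6 transduced arrays and 5.72 on MEF. Mef2c had signals between 18.32 and 18.87 on the transduced arrays and 8.24 on MEF. Ep300 was 9.47 on siEp300 and 9.90 on siCtrl. Gata4 was below background on all 7 arrays, at 3.57 to 5.09, so its signal gives no check of that virus. In such bulk RNA, fewer cells of a type and less RNA per cell cannot be told apart.

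As background, the intercalated disc combines gap junctions, desmosomes and adherens junctions. Gap junctions are channels built of connexins that pass ions from cell to cell, so that the beat spreads. Desmosomes hold cells together under load. Their cadherins, Dsg2 and Dsc2 in heart muscle, bind plakoglobin (Jup) and plakophilin (Pkp2), and desmoplakin (Dsp) ties these to the desmin filaments. Adherens junctions use N-cadherin (Cdh2) and catenins to reach the actin of the myofibrils. Inherited loss of desmosome proteins is a known cause of arrhythmogenic cardiomyopathy in humans.

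Dsp, Jup and Cdh2 were higher on every transduced array than on MEF, and Gjc1 was lower on every one. On GT/M2TAD 3 of the 10 genes were counted as higher and 2 as lower than on MEF, where 8.35% of all genes were counted as higher and 6.4% as lower. On GT/M6 4 were higher and 1 lower, against 7.37% and 6.01% of all genes. On GT/M2 4 were higher and 1 lower, against 8.18% and 5.48%, and on GT/M1 3 were higher and 1 lower, against 6.53% and 6.42%. On siEp300 3 were higher and 1 lower, against 8.8% and 6.15%, and on siCtrl 3 and 1, against 7.26% and 7.08%. After median centring those shares over all genes lay between 5.05% and 7.27% for higher and between 7.42% and 8.61% for lower, while the members' counts against MEF were as given. These 6 comparisons share the MEF array. Dsp, Jup and Cdh2 were among the 3.68% of genes counted as higher on all 6, and Gjc1 was among the 3.36% counted as lower on all 6. The median difference over the members was between 0.54 and 1.86, and over all genes between 0.01 and 0.12. These medians include genes below background. On GT/M6 the members' median lay between Ctnna3, at 1.67, and Dsc2, at 2.05, neither above background. Over genes above background on either array, 5 or 6 of them members, the medians were 1.89 to 2.82 for members and -0.05 to 0.20 for all.

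**Figure D1:**
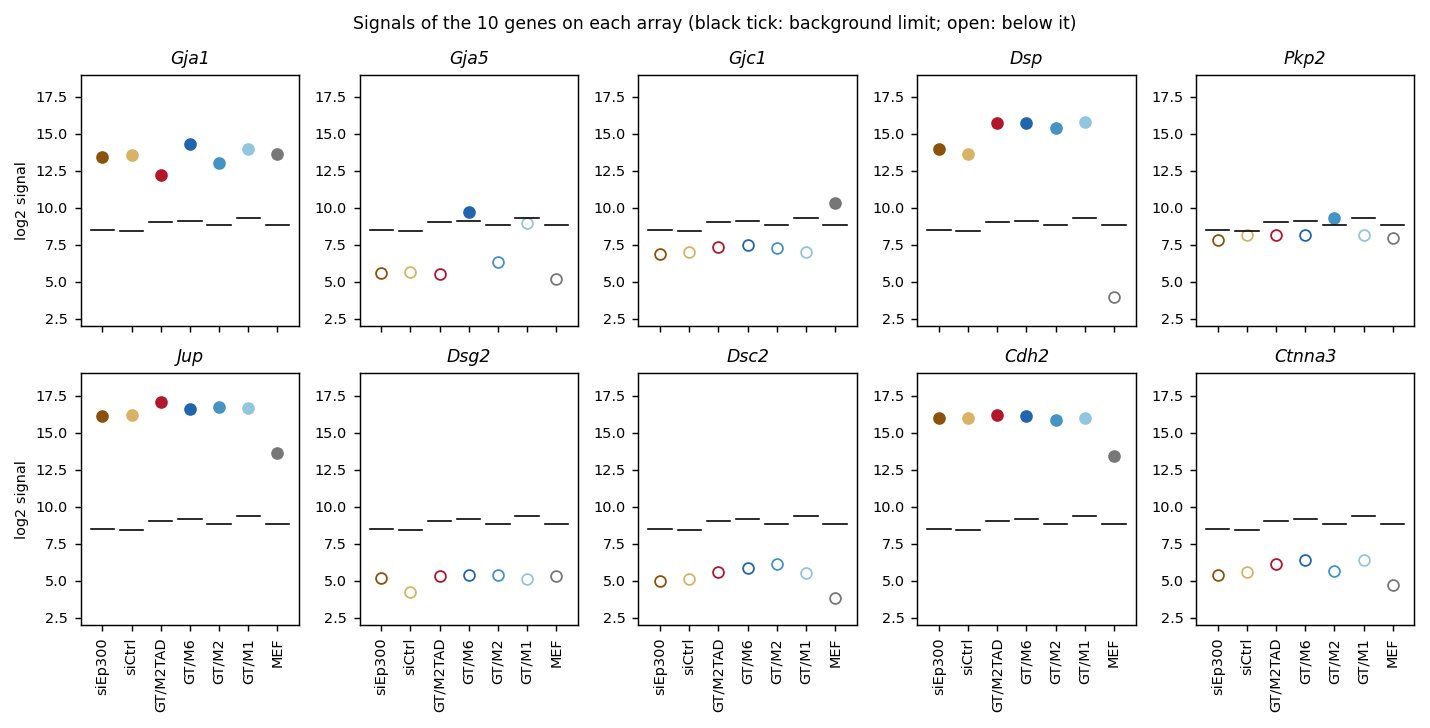
Log2 signal (vertical axis) of each gene on each of the 7 arrays (horizontal axis), 1 point per array. Black ticks mark the background limit of that array, and open points lie below it. Dsp is below the limit on MEF alone, Gjc1 is above it on MEF alone, and Dsg2, Dsc2 and Ctnna3 lie below it on all arrays. Heights of different genes are not comparable.

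The largest difference was that of Dsp, which encodes desmoplakin, the link from the desmosome to intermediate filaments. Its signal was 13.99 on siEp300, 13.67 on siCtrl, 15.70 on GT/M2TAD, 15.73 on GT/M6, 15.42 on GT/M2 and 15.80 on GT/M1, against 3.95 on MEF. All 6 transduced arrays were thus far above MEF, where the gene was below background. The log2 differences, of 9.72 to 11.85, rest on a MEF signal below background. Measured to the background limit of the MEF array, Dsp was at least 127-fold higher on GT/M1, at least 119-fold on GT/M2TAD and at least 29-fold on siCtrl. The 4 arrays without siRNA lay between 15.42 and 15.80, a narrow range beside the distance to MEF.

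Jup encodes plakoglobin, an arm-repeat protein found in both desmosomes and adherens junctions. Its signal was 16.09 on siEp300, 16.17 on siCtrl, 17.05 on GT/M2TAD, 16.56 on GT/M6, 16.74 on GT/M2 and 16.68 on GT/M1, against 13.60 on MEF. It was above background everywhere and highest on GT/M2TAD, 3.46 above MEF. On siEp300, the lowest of the transduced arrays, it was 2.50 above MEF. Those differences were larger in size than those of 86.1% to 91.0% of the genes above background on either array.

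Cdh2 encodes N-cadherin, the classical cadherin of heart muscle and also of fibroblasts. Its signal was 15.97 on siEp300, 16.01 on siCtrl, 16.17 on GT/M2TAD, 16.10 on GT/M6, 15.83 on GT/M2 and 16.00 on GT/M1, against 13.42 on MEF. The transduced arrays lay between 15.83 and 16.17, the narrowest range of the 10 genes, and 2.41 to 2.75 above MEF. Its signal was thus nearly level over all Mef2c forms and both siRNAs.

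Of the other desmosome members, Pkp2, which encodes plakophilin-2, had signals of 7.84 on siEp300, 8.16 on siCtrl, 8.16 on GT/M2TAD, 8.19 on GT/M6, 9.32 on GT/M2 and 8.19 on GT/M1, against 7.96 on MEF. It was above background on GT/M2 alone, where the limit was 8.82, and there it was 1.36 above MEF. Taken to the background limit, that is at least 1.43-fold. On the other transduced arrays it differed from MEF by no more than 0.23.

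Dsg2 and Dsc2, the desmosomal cadherins of the heart, were below background on all 7 arrays. Dsg2 lay between 4.24 and 5.36 on the transduced arrays and at 5.32 on MEF. Dsc2 lay between 4.97 and 6.09 on the transduced arrays and at 3.79 on MEF, with all 6 above MEF. Ctnna3, the gene for the alpha-T-catenin that ties plakophilin-2 to the cadherin-catenin complex, was between 5.37 and 6.39 on the transduced arrays and at 4.72 on MEF. It too was above MEF on all 6 and below background everywhere. In all, 6 of the 10 members were above MEF on all 6 arrays at any signal, as were 28.0% of all genes, and 1 (Gjc1) was below MEF on all 6, as were 21.2% of all genes. No fold is given for Dsg2, Dsc2 or Ctnna3, since no array measured them above background.

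The promoter windows of Dsp and Jup are shown because both genes were counted as higher on every transduced array. Cdh2 was too, but only 5 members had a window among the sequences used, and Cdh2 was not one of them. They are the 250 bases before the RefSeq start in GRCm38.p6, read 5′ to 3′ on the gene's strand, chr13:38151044-38151293 on the plus strand for Dsp and chr11:100397791-100398040 on the minus strand for Jup. Capitals mark matches to the searched motifs.
Dsp: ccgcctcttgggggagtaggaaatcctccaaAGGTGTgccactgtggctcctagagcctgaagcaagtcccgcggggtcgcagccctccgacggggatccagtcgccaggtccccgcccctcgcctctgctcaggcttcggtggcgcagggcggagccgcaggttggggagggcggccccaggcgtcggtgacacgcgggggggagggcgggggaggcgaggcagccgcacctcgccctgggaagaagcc
Jup: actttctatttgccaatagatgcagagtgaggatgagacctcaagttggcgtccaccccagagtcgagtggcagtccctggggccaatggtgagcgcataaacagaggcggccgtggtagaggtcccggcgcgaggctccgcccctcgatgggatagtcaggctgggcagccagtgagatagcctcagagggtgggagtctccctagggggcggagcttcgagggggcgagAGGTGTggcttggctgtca
The motifs, searched on both strands, were the MEF2 consensus by name, AGATAA as the core of a GATA site, AGGTGT as the core of a T-box site, CAGGTG as an E-box and TATAAA as a TATA box. The letters AGGTGT and CAGGTG can overlap. Each window held 1 AGGTGT and no match to the others. In Dsp it began 219 bases before the start and in Jup 19 bases before it. Of 32851 windows of the same length, 11.8% held AGGTGT, 9.99% AGATAA, 2.92% the MEF2 consensus, 17.2% CAGGTG and 12.4% TATAAA. A match is no evidence of binding. The Dsp window was 72.4% G or C with 22 CpG, and the Jup window 62% with 13, against medians of 52.4% and 6 over all windows.

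Gjc1 went the other way. It encodes the connexin of the early embryonic heart and of nodal conduction tissue, which forms channels of low conductance. Its signal was 6.87 on siEp300, 7.02 on siCtrl, 7.36 on GT/M2TAD, 7.47 on GT/M6, 7.32 on GT/M2 and 7.04 on GT/M1, against 10.31 on MEF. It was above background on MEF alone, and the 6 transduced arrays lay close together, between 6.87 and 7.47. The log2 differences from MEF were between -3.45, on siEp300, and -2.85, on GT/M6. Taken to the limit of each transduced array it was at least 3.47-fold lower on siEp300, at least 3.70-fold on siCtrl and at least 1.97-fold on GT/M1.

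Gja1 encodes the chief connexin of the working ventricle, which fibroblasts also make. Its signal was 13.41 on siEp300, 13.58 on siCtrl, 12.20 on GT/M2TAD, 14.33 on GT/M6, 13.03 on GT/M2 and 13.99 on GT/M1, against 13.65 on MEF. GT/M6 and GT/M1 were above MEF and the other 4 arrays below it. On GT/M2TAD alone was it counted as lower than on MEF, with a log2 difference of -1.44, larger in size than those of 66.4% of genes above background on either array.

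Gja5 encodes the connexin of the atria and the fast conduction system, also found in arterial endothelium. Its signal was 5.61 on siEp300, 5.66 on siCtrl, 5.54 on GT/M2TAD, 9.70 on GT/M6, 6.36 on GT/M2 and 8.97 on GT/M1, against 5.18 on MEF. It was above background on GT/M6 alone, where the limit was 9.14. On GT/M1 it lay just under the limit of 9.33. On GT/M6 it was 4.52 above MEF, or at least 1.85-fold when taken to the background limit of MEF. The 6 arrays other than GT/M6 were below background, so their order is not read.

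**Figure D2:**
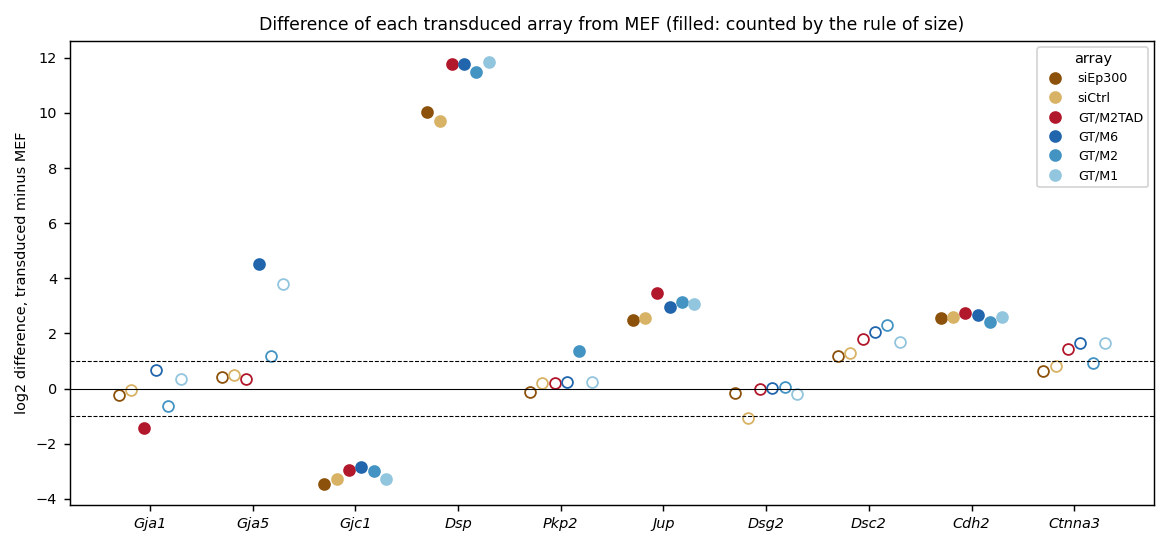
Log2 difference of each transduced array from MEF (vertical axis) for each gene (horizontal axis), 1 point per array, with dashed lines at the log2 difference of 1 that counts. Filled points met the rule of size. Dsp lies between 9.72 and 11.85, Jup and Cdh2 between 2.41 and 3.46, and Gjc1 between -3.45 and -2.85. Gja5 meets the rule on GT/M6 alone.

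The Mef2c isoforms were then set against each other. Between GT/M6 and GT/M2, Gja1 and Gja5 were counted as higher and Pkp2 as lower on GT/M6, against 0.897% of all genes higher and 0.918% lower. Gja1 was 14.33 on GT/M6 and 13.03 on GT/M2, a difference of 1.30, larger in size than 96.5% of genes above background on either array. Gja5 was 9.70 on GT/M6 and 6.36 on GT/M2. With GT/M2 below background, it was at least 1.83-fold higher when taken to the limit. Pkp2 differed by -1.13, or was at least 1.14-fold lower when taken to the limit.

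Between GT/M2 and GT/M1, Pkp2 alone was counted as higher, by 1.13, and none as lower, against 0.984% and 0.636% of all genes. After quantile normalization and level-dependent centring the split over all genes was 0.81% higher and 0.841% lower, and 0.759% and 0.815%. The Pkp2 signal of 9.32 on GT/M2 did not exceed the GT/M1 limit of 9.33, so this difference has no bound above 1. Gja1 was 13.03 on GT/M2 and 13.99 on GT/M1, a difference of -0.96, just short of the size that counts. It passed that size after quantile normalization, at -1.07, and after level-dependent centring, at -1.04. Gja5 was 6.36 on GT/M2 and 8.97 on GT/M1, both below background.

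GT/M6 and GT/M1 were the pair of arrays with the least root mean square difference over these genes. No member was counted as higher or lower between them, where 0.292% of all genes were higher and 0.082% lower. Gja1 was 0.34 higher and Gja5 0.73 higher on GT/M6. The root mean square difference over the 10 members was 0.32 between GT/M6 and GT/M1, the least of any pair of arrays, as it was over all genes at 0.38. That measure includes signals below background. Between siEp300 and siCtrl it was 0.34 over the members, with Dsg2, below background on both, differing by 0.91. The order of these pairs over the members is thus not read. Over the 3 isoform arrays Dsp lay between 15.42 and 15.80, Jup between 16.56 and 16.74, and Cdh2 between 15.83 and 16.10.

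The MyoD domain was examined by setting GT/M2TAD against GT/M2. Pkp2 was counted as lower, at 8.16 on GT/M2TAD and 9.32 on GT/M2, and none as higher, against 1.86% of all genes lower and 1.97% higher. Gja1 was 12.20 on GT/M2TAD and 13.03 on GT/M2, a difference of -0.83. Jup was 0.31, Cdh2 0.34 and Dsp 0.28 higher, larger in size than 42.7%, 45.7% and 39.2% of genes above background on either array. Against the mean of the GT/M6, GT/M2 and GT/M1 arrays, Gja1 was at -1.58 and counted as lower, and Pkp2 was at -0.41 and not counted. The Pkp2 difference thus rests on the GT/M2 array, the only one on which the gene was above background.

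The promoter windows of the working and the atrial connexin genes are shown because Gja1 and Gja5 differed between the isoform arrays. They are the same 250 bases before the RefSeq start in GRCm38.p6, chr10:56377050-56377299 for Gja1 and chr3:97032152-97032401 for Gja5, both on the plus strand, with motif matches in capitals.
Gja1: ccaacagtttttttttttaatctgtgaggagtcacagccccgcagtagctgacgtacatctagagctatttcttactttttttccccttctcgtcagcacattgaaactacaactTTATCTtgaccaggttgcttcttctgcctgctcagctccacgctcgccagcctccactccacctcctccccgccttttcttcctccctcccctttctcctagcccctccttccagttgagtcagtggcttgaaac
Gja5: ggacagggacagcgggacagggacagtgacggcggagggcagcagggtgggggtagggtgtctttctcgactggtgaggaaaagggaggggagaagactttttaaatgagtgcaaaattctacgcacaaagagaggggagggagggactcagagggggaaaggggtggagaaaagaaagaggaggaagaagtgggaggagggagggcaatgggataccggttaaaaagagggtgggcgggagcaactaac
The Gja1 window held 1 TTATCT, the complement of AGATAA, which began 135 bases before the start. No searched motif was found in the Gja5 window, which says only that these letters are not in these 250 bases.

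The siRNA arrays were compared with each other to ask what differed with Ep300 siRNA. The target itself did not meet the rule of size, since the Ep300 signals (siCtrl 9.90, siEp300 9.47) lay less than 1 apart. How the members respond to a larger loss of Ep300 was thus not tested. No member was counted as higher or lower on siEp300, where 0.6% of all genes were higher and 0.0308% lower. The split over all genes was 0.174% higher and 0.103% lower after quantile normalization. Dsp, at 13.99 on siEp300 against 13.67 on siCtrl, was 0.33 higher, larger in size than 58.2% of genes above background on either array. Jup differed by -0.076, Cdh2 by -0.035 and Gja1 by -0.17. Taken over all genes, the median difference was 0.14. Dsg2 was 5.15 on siEp300 and 4.24 on siCtrl, both below background.

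Against the cells without siRNA, siCtrl differed in Dsp whichever label is taken. Dsp was 13.67 on siCtrl and 15.70 on GT/M2TAD, a difference of -2.04, larger in size than 96.6% of genes above background on either array. Gja1 was 13.58 on siCtrl and 12.20 on GT/M2TAD, higher by 1.38. These were the members counted, against 3.07% of all genes lower and 1.79% higher, or 2.05% and 2.45% after median centring. On GT/M2 Dsp was 15.42 and Pkp2 9.32, and siCtrl differed by -1.75 and -1.16, against 6.34% of all genes lower and 3.55% higher, or 4.24% and 4.82% after median centring. The Pkp2 difference did not count under any of the 3 scalings, at -0.91 to -0.79. Over the 10 members the root mean square difference of siCtrl was 0.93 from GT/M2TAD and 0.89 from GT/M2.

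Both siRNA arrays lay below all 4 arrays without siRNA for 5 of the 10 members, as for 20.9% of all genes, and above them for none, against 14.9% of all genes. These were Dsp, Jup, Gjc1, Dsc2 and Ctnna3, and of them only Dsp and Jup were above background on these arrays. The gap from the highest siRNA array to the lowest array without siRNA was 1.43 for Dsp and 0.39 for Jup. The transduced Tbx5 showed a gap of 1.31, with 14.82 on siEp300 and 14.83 on siCtrl, against 16.14 to 16.23 on the 4 arrays without siRNA. Its part in the Dsp difference was not tested.

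Genes with a pattern like that of a member were sought by the root mean square difference over the 7 arrays, each gene taken about its own mean, among 4660 genes counted in at least 1 comparison. For Dsp these were Gpx3, which encodes a secreted glutathione peroxidase, at 0.25, Tbx5 at 0.46 and the serpin gene Serpina3n at 0.50. For Jup they were Ppfia1, Fmnl2 and Osbpl2, all at 0.17, and for Cdh2 Sox5 at 0.087, Scamp5 at 0.10 and Arhgef7 at 0.11. For Gja1 they were the matrix protein gene Mgp at 0.25, Ddah2 at 0.31 and Mfap2 at 0.36. Mgp was 11.13 on GT/M6, 10.24 on GT/M2, 11.01 on GT/M1 and 9.19 on GT/M2TAD, against 10.46 on MEF. For Gja5 they were the plexin gene Plxnc1 at 0.46, Gpm6b at 0.67 and Cp, which encodes ceruloplasmin, at 0.72. Gpm6b was above background on GT/M6 at 12.14 and on GT/M1 at 12.11, against 10.65 on GT/M2, and below background on MEF at 8.71. Its likeness to Gja5 is what chose it, and most Gja5 signals are below background. For Gjc1 they were the transferrin receptor gene Tfrc at 0.17, the centriole gene Sass6 at 0.19 and the tubulin gene Tubb6 at 0.21, and for Pkp2 Phf10, Echs1 and Ndufs1, at 0.19, 0.20 and 0.21. Gjc1 and Pkp2 were each above background on 1 array only, so most of their signals too are below background. Sox5, at 8.51 to 8.90 on the transduced arrays and 6.14 on MEF, was above background on siEp300 and siCtrl only. Other matches also had signals below background on some arrays. Such likeness over 7 arrays is a description.

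**Figure D3:**
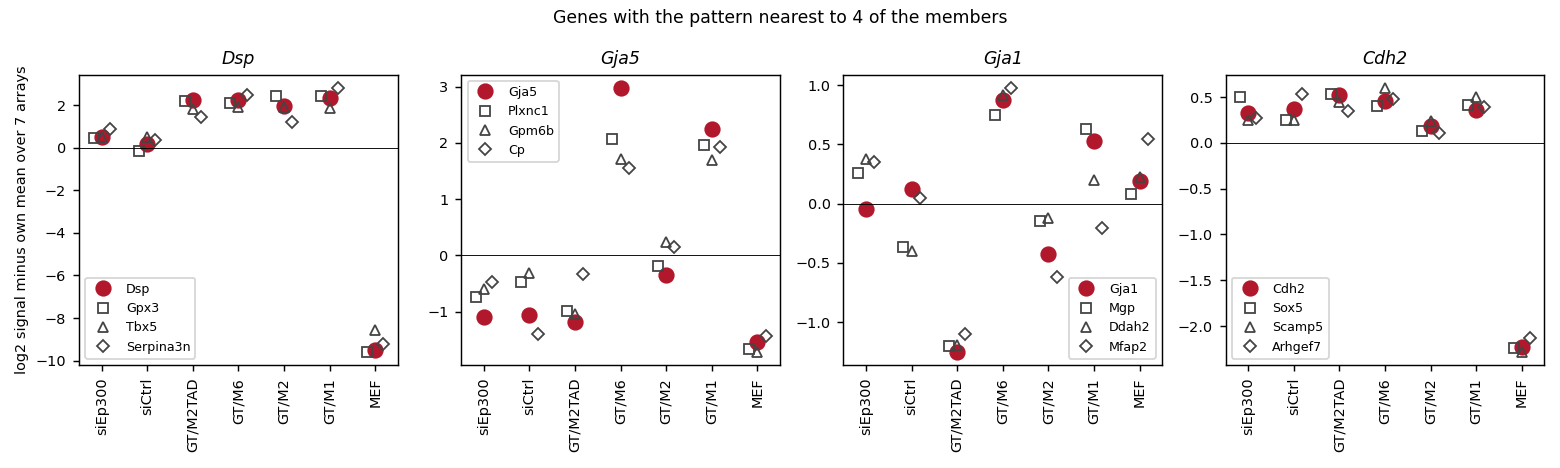
Log2 signal minus the gene's own mean over the 7 arrays (vertical axis) on each array (horizontal axis) for Dsp, Gja5, Gja1 and Cdh2 (red circles) and the 3 genes nearest to each (open symbols). The genes shown were chosen for this likeness. The Dsp genes have their lowest value on MEF, and the Gja5 genes have their highest values on GT/M6 and GT/M1.

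The other connexins and pannexins gave no signal above background. All 16 measured of 20 listed lay below the limit on all 7 arrays, so none was counted in any comparison. The connexin signal above background thus came from Gja1 on every array, Gjc1 on MEF and Gja5 on GT/M6.

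Of the 13 other desmosome genes, Perp and Pkp4 were above background, on all 7 arrays, and the other 11 on none. Perp, which encodes a tetraspan membrane protein of desmosomes, was counted as higher than MEF on all 6 arrays, as were 3.68% of all genes. It was 13.95 on siEp300, 13.58 on siCtrl, 14.97 on GT/M2TAD, 15.47 on GT/M6, 15.75 on GT/M2 and 15.65 on GT/M1, against 10.50 on MEF. Like Dsp it was lower on the siRNA arrays than on the 4 others, by a gap of 1.02.

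Among 19 measured other adherens genes, 2 were counted as higher than MEF on every transduced array and 3 to 5 as lower. The shares of all genes were 6.53% to 8.8% higher and 5.48% to 7.08% lower. Ctnnb1 was listed but had no value here. Cdh13, which encodes the GPI-anchored T-cadherin, was between 12.97 and 15.28 on the transduced arrays, against 9.02 on MEF. Afdn, the gene for the actin-binding afadin, was between 9.19 and 10.81, against 7.29 on MEF. Cdh11, the cadherin of mesenchymal cells, was between 12.08 and 14.52, against 15.29 on MEF, and was counted as lower on 5 of the 6. Cdh6, Nectin2 and Nectin3 were counted as lower on all 6.

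Of 20 disc-associated genes measured, 5 to 9 were counted as higher than MEF and at most 1 as lower, against 6.53% to 8.8% and 5.48% to 7.08% of all genes. The gene counted as lower was Lmo7, at 12.42 on siEp300, 12.51 on siCtrl and 14.00 on GT/M2TAD, against 15.29 on MEF. Their median difference, which includes genes below background, was 0.38 to 1.39, against 0.01 to 0.12 over all genes. Among those counted as higher, Des, which encodes the desmin that desmoplakin anchors, was 12.86 on siEp300, 13.05 on siCtrl, 12.22 on GT/M2TAD, 11.86 on GT/M6, 11.64 on GT/M2 and 11.96 on GT/M1, against 6.80 on MEF. Popdc3, of the Popeye family of cAMP-binding membrane proteins, was between 10.04 and 11.81 on the transduced arrays, against 5.10 on MEF. Sorbs2, which encodes a scaffold protein of the disc and the Z-disc, was between 15.09 and 16.54, against 10.95 on MEF. Xirp2, which encodes an actin-binding protein of the disc, was 11.12 on siEp300, 11.09 on siCtrl, 9.17 on GT/M2TAD, 2.77 on GT/M6, 5.50 on GT/M2 and 3.97 on GT/M1, against 4.0 on MEF. It was above background on the siRNA arrays and GT/M2TAD only.

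**Figure D4:**
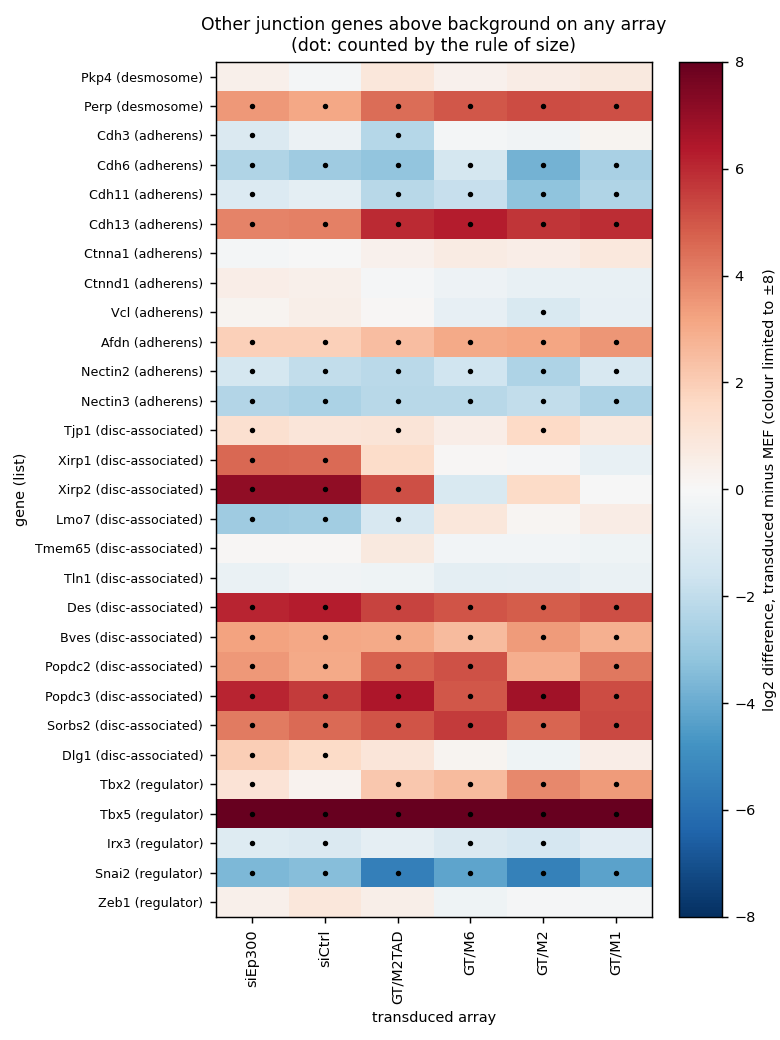
Log2 difference from MEF (colour, red higher and blue lower, limited to 8 either way) for the other junction genes and regulators above background on at least 1 array (rows) on each transduced array (columns). Dots mark differences that met the rule of size. Perp, Cdh13, Afdn, Des, Bves, Popdc3 and Sorbs2 are counted as higher on all 6 arrays, as is the transduced Tbx5.

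Markers of the cell types that use these junctions were read beside the members. Of 11 heart muscle markers, 5 or 6 were above background on each transduced array and 1 on MEF. The log2 of their summed signal was 17.72 to 19.22 on the transduced arrays and 10.07 on MEF. Signals were summed on the linear scale, so the brightest genes of a list weigh most in this value. Tnnt2, cardiac troponin T, was between 16.79 and 17.67 on the transduced arrays and 7.61 on MEF. Of 12 epithelial markers, 2 were above background on siEp300 and siCtrl, Krt18 and Esrp2, and none on the other arrays. The limits of siEp300 and siCtrl, 8.52 and 8.43, were the lowest, the next being 8.81 on MEF. Krt18 was 9.46 on siEp300 and 8.57 on siCtrl, and Esrp2 was 8.55 and 8.88. The log2 of the summed signal was 9.93 to 10.24 on the siRNA arrays and 8.13 to 9.10 on the 4 without siRNA, against 8.25 on MEF. The defining markers Cdh1 and Epcam were below background on all arrays, at 3.64 to 4.81 and 2.39 to 3.78. Of 8 mesothelial markers measured, 1 or 2 were above background on each transduced array and none on MEF. Those were Msln on the siRNA arrays, Upk1b on GT/M6, GT/M2 and GT/M1, and Krt19 on GT/M2TAD, GT/M2 and GT/M1. Msln was 8.74 on siEp300, 8.55 on siCtrl and 8.53 on GT/M6, where the limit was higher, at 9.14. Krt19 on GT/M6, at 9.05, was also just under that limit. The log2 of the list's summed signal was 9.75 to 12.88 on the transduced arrays, against 8.16 on MEF.

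Of 10 endothelial markers, Kdr was above background on MEF and none on the transduced arrays. The log2 of their summed signal was 7.49 to 8.15 on the transduced arrays and 9.44 on MEF. Pecam1 was at 3.09 to 3.90 and Cdh5 at 2.79 to 3.52 over the 7 arrays, below background on each. Of 11 fibroblast markers, 6 to 9 were above background on the transduced arrays and 9 on MEF. Their median difference from MEF lay between -2.79 and -0.32. The log2 of their summed signal was 18.68 to 18.92 on the siRNA arrays and 16.65 to 17.46 on the others, against 18.71 on MEF. Of 7 smooth muscle markers, 6 were above background on the siRNA arrays and 4 on the others, against 7 on MEF. The log2 of their summed signal was 18.33 to 19.89 on the transduced arrays and 20.14 on MEF. Krt18, Esrp2, Msln, Upk1b, Krt19 and Kdr were named after their values were seen. The part of any of these cells in the junction gene differences was not tested.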

How the data were processed

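RNA of 7 mouse samples was hybridised to Affymetrix Clariom S arrays, 1 array a group. The deposited values are log2 signals, which the authors normalized by SST-RMA in Affymetrix Expression Console 1.4, per the series' design text. Genome build and further settings: not given in the sources used here. Of 28846 probe sets, 19572 carried 1 symbol each in the platform's annotation, and the other 9274 were not used as genes. The 5222 negative-control probes served only to set the background limit. The 19505 genes were taken as their brightest probe set. The table held 0 columns of other samples.

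Differences were computed in Python 3.11.15 with pandas 2.3.3 and numpy 2.4.6, and loess curves with statsmodels 0.14.6. A difference counted at log2 1 with the higher signal at or above its array's 95th percentile for negative controls. The number of arrays limits the precision. The counting was tested on simulated data, in which only genes well above the background limit were changed. It thus says nothing of changes in genes near that limit. Alternatives were quantile normalization, median and level-dependent centring, other limits, a log2 size of 1.5, means over probe sets, and the mean isoform array as comparator. Members and lists were chosen with earlier results of these data known. The genes named were all members, the 3 nearest patterns per counted member, genes from the junction lists, and a few checks and defining markers. The plan for each junction list was up to 3 counted genes with the largest difference. More were named from the adherens and disc-associated lists, and values were not always given for those with the largest difference. The 12 lists were the members, other connexins, other desmosome, other adherens, disc-associated and regulator genes, and markers of heart muscle, epithelium, mesothelium, endothelium, fibroblasts and smooth muscle.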

Additional observations from a re-analysis of the deposited data

How the results depend on the processing

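Of 184 counts of members over 13 comparisons and all alternatives, 164 stayed within 1.5 times the reported count and 20 did not, and no single difference changed sign as a counted value. The 164 include the counts from means over probe sets. Those could not change, since each member has 1 probe set. Without a background limit, 6 members counted as higher for GT/M1 against MEF, and 5 for GT/M2TAD against MEF. With the limit at the array's median gene there were 5 on GT/M1. Without the limit 2 were lower on siCtrl than on MEF, 2 on siCtrl than on GT/M2TAD, and 4 on siCtrl than on GT/M2. Between GT/M2 and GT/M1, 1 was lower (Gja5) without the limit or with the median limit, and 1 (Gja1) after quantile normalization or level-dependent centring. Between siCtrl and GT/M2, 1 (Dsp) was lower after quantile normalization, median centring or level-dependent centring. At a log2 size of 1.5, 1 was lower on siCtrl than on GT/M2, 1 lower on GT/M2TAD than on MEF and 1 higher on GT/M6 than on GT/M2. At that size 0 were higher on GT/M2 than on GT/M1, 0 lower on GT/M2TAD than on GT/M2, 0 lower on GT/M6 than on GT/M2 and 0 higher on siCtrl than on GT/M2TAD. Changes with the limit or the size follow from their construction, and for the scalings the cause was not tested.

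Over all genes the shares higher and lower than on MEF were 6.53% to 8.8% and 5.48% to 7.08%, and 12.6% to 16.1% and 9.58% to 12% without the limit. Between transduced arrays they were 0.292% to 3.55% and 0.0308% to 6.34%, and 0.984% to 7.15% and 0.836% to 13% without the limit, the 13% being siCtrl against GT/M2. With the median limit they were 10.9% to 14% and 8.34% to 10.9%, and at a log2 size of 1.5 they were 4.32% to 5.83% and 3.68% to 4.71%. Median centring moved the median of all genes against MEF to between -0.25 and -0.06. Between siEp300 and siCtrl, the split was 117 genes higher to 6 lower. It became 47 to 16 with median centring, 34 to 20 with quantile normalization and 37 to 20 with level-dependent centring. No paired analysis was possible because each group has 1 array. Leaving out an array ends its comparisons, so that was not run.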

Other observations

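Among 10 measured regulators of junction genes, 1 or 2 were counted as higher and 1 or 2 as lower than on MEF, against 6.53% to 8.8% and 5.48% to 7.08% of all genes. Those counted as higher included, on every transduced array, Tbx5, which was delivered by virus, so its count was set by the design. On siCtrl it was the only regulator counted as higher. Snai2, a repressor of cadherin genes in mesenchymal cells, was 10.96 on siEp300, 11.16 on siCtrl, 9.09 on GT/M2TAD, 10.34 on GT/M6, 9.12 on GT/M2 and 10.28 on GT/M1, against 14.54 on MEF, and it was counted as lower on all 6 arrays. Tbx2, a T-box repressor of the atrioventricular canal, was 9.13 on siEp300, 8.30 on siCtrl, 10.22 on GT/M2TAD, 10.60 on GT/M6, 11.92 on GT/M2 and 11.47 on GT/M1, against 8.05 on MEF. It was counted as higher on all but siCtrl. The defining cardiac regulator Nkx2-5 was below background on all 7 arrays, and was chosen for mention after its values were seen.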
